A study of Mus musculus with 12 samples.

Results

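The solute carrier genes, the largest family of membrane transporter genes in mammals, were taken as the protein-coding genes whose symbol begins with Slc and a digit. The expression table held 176 of them, and GENCODE release M21 lists 371 in the mouse. The members described here are the 136 with 1 FPKM or more in 3 or more of the 12 libraries, and the other 40 stayed below that level. Members were thus chosen by their FPKM in these same libraries, and a gene could enter through the group in which it was high. The threshold was met within both kinds of library by 102 members, only within libraries that received D by 13, and only within libraries without D by 21. The members nearest the threshold were Slc5a11, Slc26a2 and Slc25a35, which had 1.014, 1.10 and 1.13 FPKM in the library that decided it, while Slc52a3, Slc18b1 and Slc25a32 stayed outside with 0.986, 0.969 and 0.963.

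Solute carriers move small molecules across membranes without splitting ATP, either down a gradient or by coupling the movement to sodium, protons or a second substrate. They sit in the plasma membrane, the inner membrane of mitochondria, lysosomes and the secretory pathway, and the number after Slc groups them by sequence. In myeloid cells they are known for taking up glucose and amino acids, for releasing lactate, for withdrawing metals from phagosomes and for returning heme and iron from engulfed red cells to the cytosol.

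RNA was sequenced from mouse immune cells of marrow, recorded under the cell line name TAMC, in 4 groups of 3 libraries. The cells had been exposed for 24 h to NP-D@MP, to NP-D@M, to NP@M or to PBS, and the abbreviations TAMC, NP, D, M and P are not spelled out in the labels. The series concerns a nanodrug wrapped in the membrane of engineered cancer cells and directed at cyclin-dependent kinases. NP-D@M against NP@M therefore asks what D adds to the particle, NP-D@MP against PBS sets the full formulation beside the vehicle, and these comparisons share no library. NP-D@MP against NP-D@M asks what P adds, and NP@M against PBS what the particle without D does.

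The table holds FPKM values (fragments per kilobase and per M reads), from which whole reads could be recovered. These came to between 14444950 and 17338264 per library, but the library sizes behind the deposited FPKM were 7.84 M to 8.87 M reads with D and 31.6 M to 38.1 M reads without D, so the authors had applied a factor between libraries. Each comparison of D with no D was therefore tested as deposited and again with every library scaled to its own read total, and a fold change is as deposited where no scaling is named. "Rose" and "fell" are used below only of members that passed the test in the same direction under both. A read total is the sum over the genes in the table, so reads of genes left out of the table are missing from it. The median log2 fold change of all 8615 genes tested was 0.16 as deposited and -1.47 with read totals in NP-D@M against NP@M, and 0.13 and -1.48 in NP-D@MP against PBS. The ferritin gene Fth1 alone took 9.21% ± 0.522 of the reads with NP-D@MP and 9.81% ± 0.477 with NP-D@M, against 2.78% ± 0.993 with NP@M and 2.77% ± 0.997 with PBS (SD, n = 3 each). Libraries PBS replicate 3 and NP@M replicate 2 differed from their group mates, with correlations to them of 0.877 to 0.932 where all other pairs within a group were at 0.98 or above, and with 9.31% and 9.11% of genes at 0. Of the markers of macrophages and monocytes, 11 of 11 were in the table and 7 rose and 0 fell in NP-D@M against NP@M, where 9.12% of all genes tested rose and 46% fell. Their summed level was 36551 to 38776 FPKM with NP-D@MP and 31250 to 41918 FPKM with NP-D@M, against 2856 to 3493 FPKM with NP@M and 2895 to 4182 FPKM with PBS. With read totals the sums were closer, 18086 to 18432 with NP-D@MP and 16477 to 20227 with NP-D@M, against 6610 to 8209 with NP@M and 6819 to 9154 with PBS. Most of each sum was Lyz2, which as deposited averaged 27281 FPKM with NP-D@M and 2158 FPKM with NP@M. The relative difference was smallest for Csf1r (125 FPKM with NP-D@M and 60.9 FPKM with NP@M) and Cd14 (1302 and 425 FPKM). Of 6 retina markers, listed because the extraction protocol speaks of retinas, 0 were matched in the table, and of 7 erythroid markers 0. In bulk RNA, fewer cells of a type and less RNA per cell cannot be told apart, and the part of cell make-up in the results below was not tested.

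Most solute carriers passed the test in NP-D@M against NP@M, but only some of them in the same direction under both scalings. In NP-D@M against NP@M, 8 members rose and 48 fell under both scalings. The risers were transporters of amino acids (Slc36a2, Slc7a8, Slc38a6), heme (Slc48a1), zinc (Slc39a11, Slc39a2), nucleosides (Slc29a1) and the nucleotide carrier of the endoplasmic reticulum (Slc35b1). As deposited and on the scale of log2(FPKM + 1), the steepest falls were those of the amino acid transporter Slc38a2, the GDP-fucose transporter Slc35c1 and the mitochondrial carrier Slc25a44. Slc38a2 and Slc25a44 stayed below 1 FPKM in every library with D, so they passed the threshold of membership only through libraries without D. The same held for other fallers, among them Slc4a1ap, Slc20a2, Slc25a25, Slc26a2, Slc30a1, Slc33a1 and Slc35e4. In all, 21 members passed only through libraries without D. The choice of members favoured a fall for these, so their calls are no separate support for one. With a filter of 5 FPKM in 3 libraries, which tests fewer members, 18 of the 48 fallers were still called lower. Of all genes tested, 9.12% rose and 46% fell under both scalings, against 5.88% and 35.3% of the members, so the shares among solute carriers were of the same order as the background and somewhat below it. As deposited, 71 members were called higher and 48 lower, where the background was 45.2% higher and 46% lower. With read totals 8 were called higher and 87 lower, and the background was 9.12% and 61.7%. The median over members was 0.50 as deposited and -1.06 with read totals. The sign of 57 members was positive as deposited and negative with read totals, while 23 members were positive and 56 negative under both. By calls, 23 were called higher as deposited and lower with read totals, 40 were called higher as deposited alone, 16 were called lower with read totals alone, and Slc6a13 was called with neither. Without PBS replicate 3 and NP@M replicate 2, 12 members rose and 51 fell under both scalings, among them all 8 and all 48 above. The risers gained were Slc17a5, Slc25a39, Slc37a2 and Slc39a8, and the fallers gained were Slc2a6, Slc6a13 and Slc30a7.

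**Figure D1:**
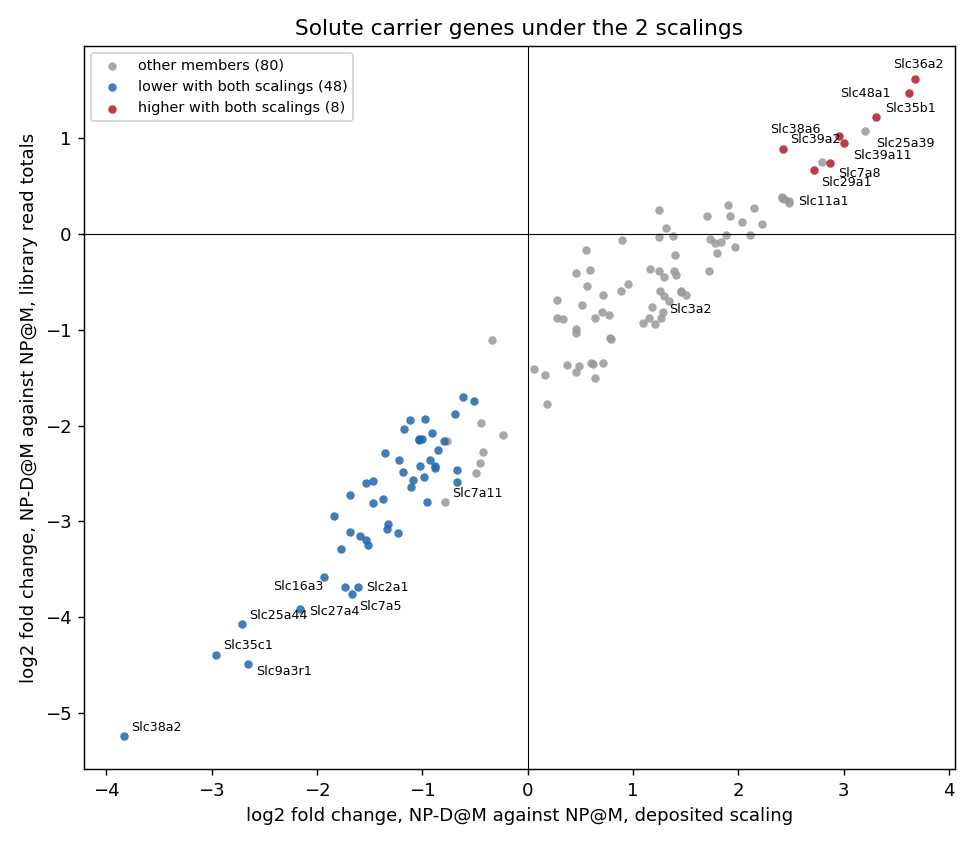
Log2 fold change of each of the 136 members in NP-D@M against NP@M, with the deposited scaling on the x axis and library read totals on the y axis; red points (8) are higher and blue points (48) lower under both scalings, and grey points (80) are the other members. Of the grey points, 57 are positive as deposited and negative with read totals, 15 are positive under both and 8 negative under both.

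The members that rose and those that fell were grouped by their calls alone, and shared regulation within a group was not tested. Stretches of 250 bases before the start of the gene were searched for short motifs. Such a stretch was found in the RefSeq promoters (build GRCm38.p6) for 6 of the 8 members that rose, 34 of the 48 that fell and 64 of the other 80. The sequences of 2 members that fell and 2 that rose are given 5′ to 3′ on the strand of the gene, ending at the base before the RefSeq start, with motif matches in capitals.
Slc38a2, fell (chr15:96699729-96699978, minus strand): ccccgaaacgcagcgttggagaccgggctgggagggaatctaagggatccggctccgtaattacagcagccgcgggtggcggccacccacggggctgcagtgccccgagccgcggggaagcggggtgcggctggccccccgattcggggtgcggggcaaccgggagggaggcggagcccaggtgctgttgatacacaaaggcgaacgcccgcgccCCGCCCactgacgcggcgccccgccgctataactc
Slc2a1, fell (chr4:119108495-119108744, plus strand): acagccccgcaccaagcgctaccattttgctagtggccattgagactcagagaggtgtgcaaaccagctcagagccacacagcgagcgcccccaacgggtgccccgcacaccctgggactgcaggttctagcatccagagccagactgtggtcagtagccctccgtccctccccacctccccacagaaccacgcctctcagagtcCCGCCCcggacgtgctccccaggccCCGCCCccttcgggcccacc
Slc35b1, rose (chr11:95384606-95384855, plus strand): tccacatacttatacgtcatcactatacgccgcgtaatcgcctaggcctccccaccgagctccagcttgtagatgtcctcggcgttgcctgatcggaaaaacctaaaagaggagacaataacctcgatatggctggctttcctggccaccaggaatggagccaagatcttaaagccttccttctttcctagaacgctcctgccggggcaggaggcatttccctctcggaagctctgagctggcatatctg
Slc39a11, rose (chr11:113650093-113650342, minus strand): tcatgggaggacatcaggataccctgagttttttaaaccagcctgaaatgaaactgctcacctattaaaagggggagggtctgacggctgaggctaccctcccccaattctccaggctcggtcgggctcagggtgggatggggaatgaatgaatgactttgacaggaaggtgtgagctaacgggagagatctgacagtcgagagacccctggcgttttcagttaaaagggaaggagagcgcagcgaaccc
The RefSeq start can differ from the gene start in the table, and for Slc35b1 it lies 164 bases further along the gene, so that the window overlaps the gene as listed there. The capitals mark the GC box (GGGCGG or its reverse complement CCGCCC), 1 match for Slc38a2 and 2 for Slc2a1, and no motif searched was found in the windows of Slc35b1 and Slc39a11. On either strand the GC box was present for 22 (64.7%) of the members that fell, 1 (16.7%) of those that rose and 42 (65.6%) of the others, against 61.1% of all tested genes with a window. The E-box CACGTG was present for 7 (20.6%) of the members that fell, 0 of those that rose and 5 (7.81%) of the others, against 8.77% of all tested genes. A TATA box (TATAAA) was found for 2 (5.88%) of the members that fell, 0 of those that rose and 2 (3.13%) of the others. The letters TGATGNAA were found for 0 of the members that fell, 0 of those that rose and 3 (4.69%) of the others. TGANTCA was found for 1 (2.94%) of the members that fell, 0 of those that rose and 5 (7.81%) of the others. The background shares of these motifs over all tested genes were 6.19%, 2.03% and 4.59%. Median GC content was 62.2% in the windows of members that fell and 54.4% in those that rose, against 60% in all tested genes. These are matches of letters, and only 6 windows stand for the members that rose.

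Amino acid transporters went both ways: 3 of 21 rose and 7 fell in NP-D@M against NP@M, where 9.12% of all genes tested rose and 46% fell. Their median log2 fold change was 0.51 as deposited and -1.34 with read totals. Slc36a2 (chr11:55158470-55185077, minus strand), a proton-coupled transporter of glycine and proline, had 137, 106 and 106 FPKM in NP-D@MP libraries and 92.1, 127 and 125 FPKM in NP-D@M libraries, against 9.34, 6.63 and 8.08 FPKM in NP@M libraries and 7.41, 7.003 and 11.6 FPKM in PBS libraries. As deposited, all 6 libraries with D lay about an order of magnitude above all 6 without D, a gap that includes the authors' factor between libraries. The log2 fold change in NP-D@M against NP@M was 3.68 (SE 0.23, adjusted p = 1.63e-07) as deposited and 1.62 (SE 0.22, adjusted p = 4.04e-05) with read totals. Slc7a8, the light chain LAT2 that exchanges neutral amino acids, had 173, 165 and 176 FPKM in NP-D@MP libraries and 114, 182 and 196 FPKM in NP-D@M libraries, against 20.8, 20.3 and 21.9 FPKM in NP@M libraries and 17.1, 22.1 and 20.7 FPKM in PBS libraries. As deposited, NP-D@M replicate 1 was the lowest library with D and still lay well above every library without D. Its log2 fold change was 2.87 as deposited (adjusted p = 4.54e-07) and 0.75 with read totals (adjusted p = 0.00477). Slc38a6, a relative of the sodium-coupled amino acid transporters and named here after its values were seen, had 32.6, 30.1 and 26.9 FPKM in NP-D@MP libraries and 29.4, 40.5 and 33.96 FPKM in NP-D@M libraries, against 2.95, 4.99 and 3.02 FPKM in NP@M libraries and 2.36, 3.26 and 6.70 FPKM in PBS libraries. It rose by 2.95 as deposited and 1.02 with read totals in NP-D@M against NP@M, whereas in NP-D@MP against PBS the read-total change of 0.69 missed the threshold (adjusted p = 0.0602).

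The largest fall of the family was that of Slc38a2 (chr15:96687392-96699730, minus strand), the sodium-coupled neutral amino acid transporter SNAT2, whose promoter is shown above. It had 0.401, 0.347 and 0.201 FPKM in NP-D@MP libraries and 0.301, 0.649 and 0.357 FPKM in NP-D@M libraries, against 14.4, 31.1 and 16.2 FPKM in NP@M libraries and 11.4, 15.2 and 27.05 FPKM in PBS libraries. The libraries with D were all near 0, and the recovered reads there numbered 31, 25 and 14 with NP-D@MP and 23, 45 and 28 with NP-D@M, against 4495, 9661 and 5379 with NP@M and 3480, 5123 and 7559 with PBS. Its log2 fold change in NP-D@M against NP@M was -3.84 (SE 0.32, adjusted p = 1.14e-06) as deposited and -5.24 (adjusted p = 5.30e-08) with read totals. Without the 2 libraries that differed from their mates the deposited value was -3.51. Slc38a1, the closely related SNAT1, had 1.11, 1.16 and 0.701 FPKM in NP-D@MP libraries and 0.792, 1.32 and 1.26 FPKM in NP-D@M libraries, against 4.38, 10.7 and 4.89 FPKM in NP@M libraries and 3.95, 4.96 and 10.4 FPKM in PBS libraries. It fell (-1.77, adjusted p = 5.50e-04, as deposited; -3.29 with read totals; -1.42 as deposited without the 2 libraries that differed from their mates), and its highest values came from NP@M replicate 2 and PBS replicate 3, the libraries that stood apart. Slc7a1, the cationic amino acid transporter CAT1, had 1.58, 1.92 and 1.75 FPKM in NP-D@MP libraries and 1.49, 1.77 and 1.66 FPKM in NP-D@M libraries, against 7.43, 11.99 and 8.33 FPKM in NP@M libraries and 6.87, 8.29 and 6.36 FPKM in PBS libraries. Its groups with and without D did not overlap, and the log2 fold change was -1.93 as deposited (adjusted p = 2.34e-06) and -3.58 with read totals.

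The paralog of Slc7a1 that feeds arginine to activated macrophages, Slc7a2 (CAT2), behaved differently as deposited. It had 96.7, 85.5 and 87.7 FPKM in NP-D@MP libraries and 105, 144 and 133 FPKM in NP-D@M libraries, against 44.4, 84.7 and 42.2 FPKM in NP@M libraries and 35.1, 51.6 and 65.5 FPKM in PBS libraries. The log2 fold change was 1.21 as deposited (adjusted p = 0.00258) but -0.93 with read totals (adjusted p = 0.0116), so its direction depended on the scaling. An antisense gene, Gm26584, shares 635 exonic bases with Slc7a2, and strand-specific counting is not stated. The light chain Slc7a5 (LAT1), which imports large neutral amino acids, had 29.7, 16.7 and 19.8 FPKM in NP-D@MP libraries and 13.8, 25.6 and 17.5 FPKM in NP-D@M libraries, against 53.3, 67.3 and 61.9 FPKM in NP@M libraries and 54.3, 55.6 and 29.2 FPKM in PBS libraries. It fell in both comparisons, with deposited log2 fold changes of -1.67 (adjusted p = 3.92e-04) in NP-D@M against NP@M and -1.02 (adjusted p = 0.00869) in NP-D@MP against PBS, and -3.75 and -3.17 with read totals. NP-D@MP replicate 1 overlapped PBS replicate 3, and with equal medians the call in NP-D@MP against PBS was lost (-0.53, adjusted p = 0.133). Slc3a2, the heavy chain that carries Slc7a5, Slc7a8 and Slc7a11 to the surface, had 190.4, 187 and 235 FPKM in NP-D@MP libraries and 190.4, 177 and 203 FPKM in NP-D@M libraries, against 103, 45.2 and 102 FPKM in NP@M libraries and 101, 102 and 28.7 FPKM in PBS libraries. The low values without D were again NP@M replicate 2 and PBS replicate 3, and the log2 fold change of 1.27 as deposited (adjusted p = 0.0204) became -0.88 with read totals (adjusted p = 0.129). In NP-D@MP against PBS it was 1.59 as deposited, and 1.00 without PBS replicate 3, while in NP-D@M against NP@M the call was lost without NP@M replicate 2 (0.88, adjusted p = 0.086) and without NP-D@M replicate 3 (1.22, adjusted p = 0.0534). The share of Slc7a5 in the summed FPKM of the members was 0.521% ± 0.148 with NP-D@MP and 0.466% ± 0.125 with NP-D@M, against 4.65% ± 0.759 with NP@M and 3.63% ± 0.779 with PBS. Its heavy chain Slc3a2 held 4.83% ± 0.539 with NP-D@MP and 4.73% ± 0.519 with NP-D@M, against 6.28% ± 2.27 with NP@M and 5.90% ± 2.79 with PBS.

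Slc7a11, which exchanges cystine for glutamate and so feeds glutathione synthesis, had 7.41, 7.18 and 5.76 FPKM in NP-D@MP libraries and 11.2, 10.9 and 11.6 FPKM in NP-D@M libraries, against 14.4, 39.7 and 13.9 FPKM in NP@M libraries and 11.8, 17.7 and 30.2 FPKM in PBS libraries. It fell in NP-D@MP against PBS (-1.34, adjusted p = 0.00714; -3.34 with read totals), a call lost with equal medians (-0.87, adjusted p = 0.0536). In NP-D@M against NP@M the deposited change of -0.78 missed the threshold (adjusted p = 0.0740) and was -0.31 without NP@M replicate 2, the highest library. The glutamine transporter Slc1a5 averaged 23.7 ± 1.09 FPKM in NP-D@M libraries and 14.7 ± 5.06 FPKM in NP@M libraries (SD, n = 3 each). Its log2 fold change was 0.71 as deposited (adjusted p = 0.0661) and -1.34 with read totals (adjusted p = 0.00782), opposite in sign, and NP@M replicate 2 set much of its spread (0.41 as deposited without it). The creatine transporter Slc6a8 averaged 32.5 ± 0.608 FPKM in NP-D@M libraries and 11.3 ± 0.778 FPKM in NP@M libraries. It too was called higher as deposited (1.45) and lower with read totals (-0.60).

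Of the 3 iron, manganese and heme transporters, Slc48a1 rose, Slc11a1 was positive under both scalings but called only as deposited, and Slc11a2 changed sign. Slc48a1 (chr15:97778520-97792692, plus strand), which passes heme out of phagolysosomes, had 710.3, 697 and 757 FPKM in NP-D@MP libraries and 689, 697 and 650.4 FPKM in NP-D@M libraries, against 74.1, 31.1 and 68.9 FPKM in NP@M libraries and 76.9, 72.4 and 26.97 FPKM in PBS libraries. It was the most abundant member with D, and the libraries with D spread little around their means. The log2 fold change in NP-D@M against NP@M was 3.62 (SE 0.40, adjusted p = 8.57e-06) as deposited and 1.47 (SE 0.43, adjusted p = 0.00931) with read totals, and 3.23 as deposited without the 2 libraries that stood apart, which were also the lowest without D. The exons of Slc48a1 share 29 bases with those of Hdac7 on the other strand. Slc11a1 (NRAMP1), the metal transporter of the phagosome membrane, had 166, 149 and 148 FPKM in NP-D@MP libraries and 187, 179 and 169.7 FPKM in NP-D@M libraries, against 30.7, 30.8 and 32.1 FPKM in NP@M libraries and 28.3, 34.3 and 24.1 FPKM in PBS libraries. It was called higher as deposited (2.48, adjusted p = 2.58e-07) and its change of 0.34 with read totals missed the threshold (adjusted p = 0.111). Slc11a2 (DMT1), which moves ferrous iron out of endosomes, averaged 14.2 ± 1.25 FPKM in NP-D@M libraries and 5.23 ± 0.811 FPKM in NP@M libraries, with log2 fold changes of 1.29 as deposited and -0.65 with read totals, both past the threshold. The iron exporter Slc40a1 (ferroportin) stayed below the threshold of membership with 0, 0.164 and 0.113 FPKM in NP-D@MP libraries and 0.0129, 0.170 and 0 FPKM in NP-D@M libraries, against 0.616, 0.692 and 0.756 FPKM in NP@M libraries and 0.539, 0.525 and 1.03 FPKM in PBS libraries. All of its 6 values with D were under its lowest value without D.

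Among 15 zinc and copper transporters, 2 rose and 6 fell, where 9.12% of all genes tested rose and 46% fell. Slc39a11, a zinc importer of the ZIP family whose promoter window held none of the motifs, had 80.5, 74.2 and 84.2 FPKM in NP-D@MP libraries and 62.6, 77.2 and 65.5 FPKM in NP-D@M libraries, against 8.66, 6.11 and 8.37 FPKM in NP@M libraries and 9.32, 8.50 and 5.85 FPKM in PBS libraries. Groups with and without D were far apart in deposited FPKM, and the log2 fold change was 3.002 as deposited (adjusted p = 2.39e-07) and 0.95 with read totals (adjusted p = 0.00165). Slc39a2, another ZIP importer, had 10.7, 8.97 and 11.7 FPKM in NP-D@MP libraries and 11.9, 8.77 and 8.37 FPKM in NP-D@M libraries, against 1.35, 0.544 and 1.11 FPKM in NP@M libraries and 1.24, 1.49 and 0.450 FPKM in PBS libraries. Its level was below that of Slc39a11 in every library, and it rose by 2.42 as deposited and 0.89 with read totals (adjusted p = 0.0280), and it shares 151 exonic bases with Mettl17 on the same strand. In the opposite direction, Slc30a1, which exports zinc across the plasma membrane, had 0, 0.0702 and 0.0970 FPKM in NP-D@MP libraries and 0.0662, 0.122 and 0.150 FPKM in NP-D@M libraries, against 1.996, 4.42 and 1.84 FPKM in NP@M libraries and 1.90, 1.82 and 2.93 FPKM in PBS libraries. Its reads with D numbered 0, 3 and 4 with NP-D@MP and 3, 5 and 7 with NP-D@M, at most a few counts above the floor of 3 reads. The log2 fold change was -1.69 as deposited (adjusted p = 3.81e-05) and -2.72 with read totals. Slc30a1 passed the threshold of membership only through libraries without D, where it was high. Slc39a14 (ZIP14), an importer of zinc and iron, also fell, with 1.12 ± 0.0565 FPKM in NP-D@M libraries and 2.89 ± 0.926 FPKM in NP@M libraries (-0.85, adjusted p = 9.04e-04; -2.26 with read totals). Quantile normalization ended the call of Slc39a14 in NP-D@M against NP@M (-0.24, adjusted p = 0.33) and in NP-D@MP against PBS (-0.12, adjusted p = 0.617). Its close relative Slc39a8 (ZIP8) averaged 2.17 ± 0.242 FPKM in NP-D@M libraries and 0.340 ± 0.0634 FPKM in NP@M libraries, and was called higher as deposited (1.24) with 0.25 by read totals (adjusted p = 0.159; 0.31, adjusted p = 0.0251, without the 2 libraries apart). ZIP8 and ZIP14 therefore stood on opposite sides in the deposited values. ZIP8 passed the threshold of membership only through libraries with D, where it was high.

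**Figure D2:**
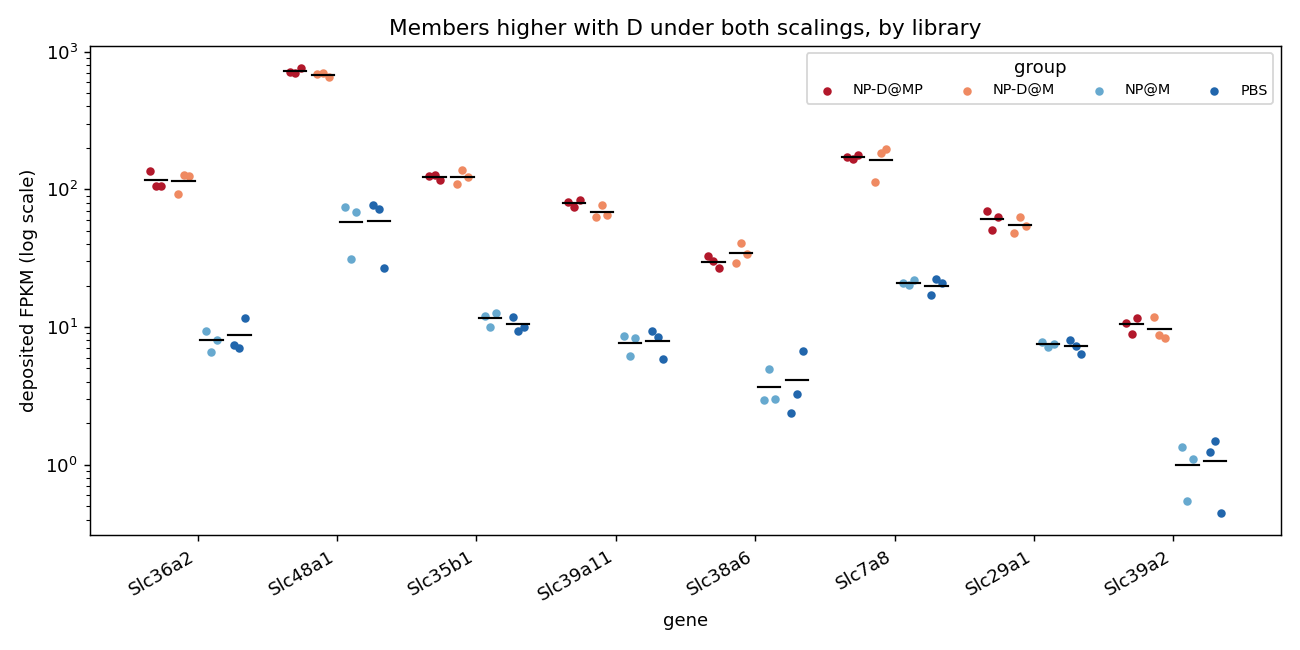
Deposited FPKM (log scale) in each library of the 8 members that rose in NP-D@M against NP@M under both scalings. Points are libraries, coloured by group in the order NP-D@MP, NP-D@M, NP@M and PBS, and black lines are means of 3. Slc38a6 did not rise in NP-D@MP against PBS. In these deposited values, which include the authors' factor between libraries, every library with D lies above every library without D for each gene. Values with D run from Slc48a1 at 650 to 757 FPKM down to Slc39a2 at 8.37 to 11.9 FPKM.

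The mitochondrial carriers of the Slc25 family, 26 members, held 0 risers and 10 fallers in NP-D@M against NP@M, and 3 risers and 10 fallers in NP-D@MP against PBS. Of all genes tested, 9.12% rose and 46% fell in the former comparison, and 9.01% and 45.8% in the latter. The median log2 fold change of these carriers in NP-D@M against NP@M was 0.62 as deposited and -0.84 with read totals. Slc25a44, which carries branched-chain amino acids into mitochondria, had 0.288, 0.515 and 0.639 FPKM in NP-D@MP libraries and 0.420, 0.392 and 0.504 FPKM in NP-D@M libraries, against 8.39, 8.21 and 8.65 FPKM in NP@M libraries and 8.09, 8.23 and 6.96 FPKM in PBS libraries. The replicates without D were close together, and those with D ranged between 0.288 and 0.639 FPKM. The log2 fold change in NP-D@M against NP@M was -2.71 (SE 0.14, adjusted p = 8.48e-08) as deposited and -4.07 with read totals. Slc25a51, the mitochondrial NAD carrier, averaged 2.64 ± 0.376 FPKM in NP-D@M libraries and 8.22 ± 1.52 FPKM in NP@M libraries and fell (log2 fold change -1.33, adjusted p = 4.14e-05; -3.08 with read totals). Slc25a37 (mitoferrin 1), which delivers iron for heme synthesis in mitochondria, had 0.779, 1.92 and 2.03 FPKM in NP-D@MP libraries and 2.94, 2.14 and 1.72 FPKM in NP-D@M libraries, against 5.87, 9.91 and 6.16 FPKM in NP@M libraries and 5.87, 6.30 and 8.36 FPKM in PBS libraries. No library with D reached a library without D, and the change was -1.33 as deposited (adjusted p = 6.07e-04) and -3.02 with read totals.

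The abundant housekeeping carriers of oxidative phosphorylation had higher deposited values with D. Slc25a5, the ubiquitous exchanger of ADP for ATP, had 604, 613 and 667 FPKM in NP-D@MP libraries and 528, 581 and 521 FPKM in NP-D@M libraries, against 115, 76.9 and 102 FPKM in NP@M libraries and 107, 96.0 and 66.4 FPKM in PBS libraries. It was called higher as deposited in both comparisons (2.48 and 2.82), and with read totals in NP-D@MP against PBS alone (0.59, adjusted p = 0.0355; 0.33, adjusted p = 0.222, in NP-D@M against NP@M). With quantile normalization it was not called in NP-D@MP against PBS (0.22, adjusted p = 0.255). Its paralog Slc25a4 averaged 61.8 ± 5.75 FPKM in NP-D@M libraries and 11.1 ± 4.17 FPKM in NP@M libraries. The phosphate carrier Slc25a3 averaged 118 ± 12.6 FPKM in NP-D@M libraries and 25.2 ± 7.37 FPKM in NP@M libraries. Both were called higher as deposited (2.44 and 2.22) and had read-total changes of 0.37 and 0.10 that missed the threshold. Reads of Slc25a5 can be split with Slc25a4 and with processed pseudogenes, and how the authors placed such reads is not stated. Slc25a39, a mitochondrial glutathione carrier named after its values were seen, had 354, 263 and 307 FPKM in NP-D@MP libraries and 248, 273 and 209 FPKM in NP-D@M libraries, against 33.8, 14.98 and 31.7 FPKM in NP@M libraries and 36.4, 33.5 and 9.87 FPKM in PBS libraries. It rose in NP-D@MP against PBS (1.48 with read totals, adjusted p = 0.0169), while in NP-D@M against NP@M the read-total change of 1.08 missed the threshold (adjusted p = 0.0652). The 2 libraries apart from their mates gave its lowest values, and without them it rose in NP-D@M against NP@M too.

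Sugar transporters numbered 11, of which 0 rose and 3 fell, where 9.12% of all genes tested rose and 46% fell. Slc2a1 (chr4:119108711-119137983, plus strand), the glucose transporter GLUT1, had 18.3, 11.97 and 15.6 FPKM in NP-D@MP libraries and 15.3, 15.9 and 15.2 FPKM in NP-D@M libraries, against 50.3, 51.02 and 47.5 FPKM in NP@M libraries and 49.2, 47.6 and 38.1 FPKM in PBS libraries. All 6 libraries with D lay far below all 6 without D. In NP-D@M against NP@M the log2 fold change was -1.62 (SE 0.18, adjusted p = 8.34e-06) as deposited and -3.69 with read totals (adjusted p = 1.49e-08). Slc2a3 (GLUT3) averaged 0.883 ± 0.171 FPKM in NP-D@M libraries and 1.72 ± 0.673 FPKM in NP@M libraries, and passed the threshold of membership only through libraries without D. It fell in NP-D@M against NP@M (-0.51, adjusted p = 0.0210; -1.74 with read totals), but not past the threshold with equal medians (-0.22, adjusted p = 0.27) and not past the threshold without NP@M replicate 2 (-0.32, adjusted p = 0.0872) or without NP-D@M replicate 1 (-0.43, adjusted p = 0.0715), nor in NP-D@MP against PBS (-0.35, adjusted p = 0.0882), and quantile normalization turned its sign in both (0.22 in NP-D@M against NP@M and 0.37 in NP-D@MP against PBS). Slc2a6, a glucose transporter family member of lysosomes, had 8.55, 11.05 and 8.08 FPKM in NP-D@MP libraries and 9.98, 10.1 and 12.4 FPKM in NP-D@M libraries, against 19.2, 9.69 and 19.9 FPKM in NP@M libraries and 18.9, 20.4 and 8.16 FPKM in PBS libraries. The deposited change of -0.49 missed the threshold (adjusted p = 0.184) and was -0.80 (adjusted p = 0.0386) without NP@M replicate 2, which lay among the libraries with D. Slc37a2, a glucose-6-phosphate transporter of the endoplasmic reticulum that is abundant in macrophages, averaged 44.01 ± 3.11 FPKM in NP-D@M libraries and 7.45 ± 0.438 FPKM in NP@M libraries, called higher as deposited (2.41) and 0.38 with read totals (adjusted p = 0.211). Without the 2 libraries apart, Slc37a2 rose under both scalings in both comparisons, with read-total changes of 0.41 (adjusted p = 0.0106) in NP-D@M against NP@M and 0.68 (adjusted p = 4.62e-04) in NP-D@MP against PBS.

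Carboxylate and fatty acid transporters (6 members) held 0 risers and 2 fallers, where 9.12% of all genes tested rose and 46% fell. Slc16a3 (MCT4), through which glycolytic cells release lactate, had 6.28, 5.93 and 5.35 FPKM in NP-D@MP libraries and 6.44, 5.23 and 6.23 FPKM in NP-D@M libraries, against 30.8, 12.2 and 28.3 FPKM in NP@M libraries and 34.5, 33.5 and 8.94 FPKM in PBS libraries. Its group means differed by -1.74 on the log2 scale as deposited (SE 0.46, adjusted p = 0.00415) and -3.68 with read totals, and by -2.14 as deposited without the libraries that stood apart, which gave the lowest values without D. Slc27a4, a fatty acid transporter with acyl-CoA synthetase activity, had 3.55, 3.31 and 4.49 FPKM in NP-D@MP libraries and 2.49, 2.11 and 2.45 FPKM in NP-D@M libraries, against 15.1, 11.9 and 15.1 FPKM in NP@M libraries and 16.5, 16.5 and 9.56 FPKM in PBS libraries. It fell (log2 fold change -2.16, SE 0.21, adjusted p = 3.49e-06; -3.92 with read totals). The lactate and pyruvate transporter Slc16a1 (MCT1) did not follow them, with 4.77 ± 1.08 FPKM in NP-D@M libraries and 3.55 ± 1.49 FPKM in NP@M libraries. Its deposited change of 0.37 missed the threshold (adjusted p = 0.168) but passed it without NP@M replicate 2 (0.63, adjusted p = 0.0236), its read-total change was -1.37 (adjusted p = 4.71e-04), and the groups overlapped.

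Nucleoside, vitamin and choline transporters (11 members) held 1 riser and 2 fallers, where 9.12% of all genes tested rose and 46% fell. Slc29a1 (chr17:45585200-45599606, minus strand), the equilibrative nucleoside transporter ENT1 of the plasma membrane, had 70.0, 50.9 and 63.0 FPKM in NP-D@MP libraries and 48.1, 62.6 and 54.3 FPKM in NP-D@M libraries, against 7.79, 7.16 and 7.505 FPKM in NP@M libraries and 8.04, 7.32 and 6.33 FPKM in PBS libraries. Its replicates without D were close together, and the log2 fold change was 2.72 as deposited (adjusted p = 2.02e-07) and 0.67 with read totals (adjusted p = 0.00430). An antisense gene, Gm17080, shares 275 exonic bases with it. Slc29a3 (ENT3), the nucleoside transporter of lysosomes, had 4.82, 3.51 and 3.94 FPKM in NP-D@MP libraries and 3.67, 4.13 and 4.37 FPKM in NP-D@M libraries, against 6.95, 11.3 and 8.64 FPKM in NP@M libraries and 5.60, 8.01 and 11.9 FPKM in PBS libraries. It fell (log2 fold change -0.96 as deposited, adjusted p = 0.00346; -2.80 with read totals), where ENT1 rose. Equal medians ended the call of Slc29a3 in NP-D@M against NP@M (-0.51, adjusted p = 0.0799) and in NP-D@MP against PBS (-0.43, adjusted p = 0.133). The proton-coupled folate transporter Slc46a1 averaged 4.26 ± 0.591 FPKM in NP-D@M libraries and 1.36 ± 0.285 FPKM in NP@M libraries, with 1.16 as deposited (adjusted p = 3.06e-04) and -0.37 with read totals (adjusted p = 0.245).

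Transporters of nucleotide sugars and acetyl-CoA in the secretory pathway, 17 members, held 1 riser and 8 fallers. The shares over all genes tested were 9.12% and 46%. Slc35b1 (chr11:95384692-95391776, plus strand), which brings ATP into the endoplasmic reticulum in exchange for ADP, had 126, 126 and 116 FPKM in NP-D@MP libraries and 109, 139 and 124 FPKM in NP-D@M libraries, against 12.1, 10 and 12.6 FPKM in NP@M libraries and 11.9, 9.42 and 10.04 FPKM in PBS libraries. The log2 fold change was 3.31 (SE 0.17, adjusted p = 8.48e-08) as deposited and 1.22 (adjusted p = 3.33e-05) with read totals. This member had the smallest adjusted p of the risers. Slc35c1, which imports GDP-fucose into the Golgi for fucosylation, had 1.33, 0.787 and 1.16 FPKM in NP-D@MP libraries and 1.17, 0.350 and 0.447 FPKM in NP-D@M libraries, against 12.3, 9.11 and 13.8 FPKM in NP@M libraries and 11.4, 12.5 and 8.08 FPKM in PBS libraries. It fell (log2 fold change -2.96, SE 0.24, adjusted p = 8.19e-07; -4.39 with read totals), the second largest fall of the family as deposited on the scale of log2(FPKM + 1). Slc35f6 averaged 1.34 ± 0.175 FPKM in NP-D@M libraries and 6.08 ± 0.889 FPKM in NP@M libraries and fell (log2 fold change -1.59, adjusted p = 4.42e-06; -3.15 with read totals).

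Exchangers of protons, bicarbonate, sodium, potassium and chloride (9 members) held 0 risers and 3 fallers, and transporters of calcium, magnesium, phosphate and ammonium (7 members) 0 risers and 4 fallers. Here too 9.12% of all genes tested rose and 46% fell. Slc8b1, the sodium-calcium exchanger of mitochondria, averaged 2.39 ± 0.296 FPKM in NP-D@M libraries and 8.92 ± 2.58 FPKM in NP@M libraries and fell (log2 fold change -1.52, adjusted p = 1.46e-04; -3.25 with read totals). The phosphate importer Slc20a1 averaged 5.33 ± 2.03 FPKM in NP-D@M libraries and 7.24 ± 0.822 FPKM in NP@M libraries, a deposited change of -0.42 that missed the threshold (adjusted p = 0.0871) except when NP-D@M replicate 1 was left out (-0.67, adjusted p = 0.00707). Among 7 transporters of organic ions and bile acids 0 rose and 1 fell. The peptide and histidine transporter of lysosomes, Slc15a3, had 103, 108 and 100.5 FPKM in NP-D@MP libraries and 135, 103 and 115 FPKM in NP-D@M libraries, against 44.95, 33.6 and 44.3 FPKM in NP@M libraries and 42.9, 47.4 and 31.7 FPKM in PBS libraries. It was called higher as deposited (1.503) and lower with read totals (-0.63, adjusted p = 0.0264), and the neighbouring gene Tmem132a shares 1541 exonic bases with it on the other strand.

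The rule on symbols also admits 2 adaptor proteins that are no transporters, Slc9a3r1 and Slc4a1ap, and both fell, although quantile normalization ended the call of Slc4a1ap in NP-D@M against NP@M. Slc9a3r1 is a scaffold that ties membrane proteins to the cytoskeleton. It had 2.85, 3.19 and 3.24 FPKM in NP-D@MP libraries and 3.13, 2.85 and 2.93 FPKM in NP-D@M libraries, against 32.3, 13.2 and 32.3 FPKM in NP@M libraries and 37.5, 33.1 and 10.2 FPKM in PBS libraries. The log2 fold change was -2.66 as deposited (SE 0.44, adjusted p = 1.74e-04), -4.49 with read totals, and -3.07 as deposited without the libraries that stood apart, whose values lay between those of their mates and those of the libraries with D.

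**Figure D3:**
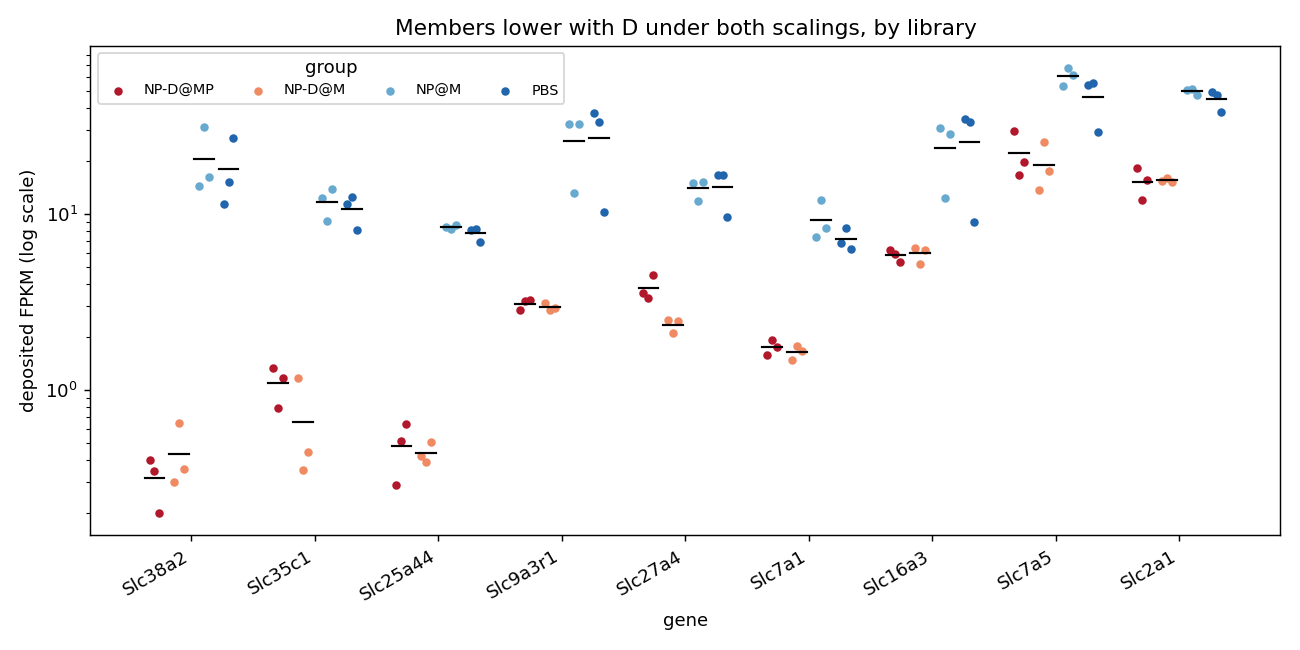
Deposited FPKM (log scale) in each library of 9 members that fell with D under both scalings; points are libraries, coloured by group in the order NP-D@MP, NP-D@M, NP@M and PBS, and black lines are means of 3. Slc38a2 lies between 0.201 and 0.649 FPKM with D and between 11.4 and 31.1 FPKM without D, and Slc7a5 is the gene whose groups overlap.

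**Figure D4:**
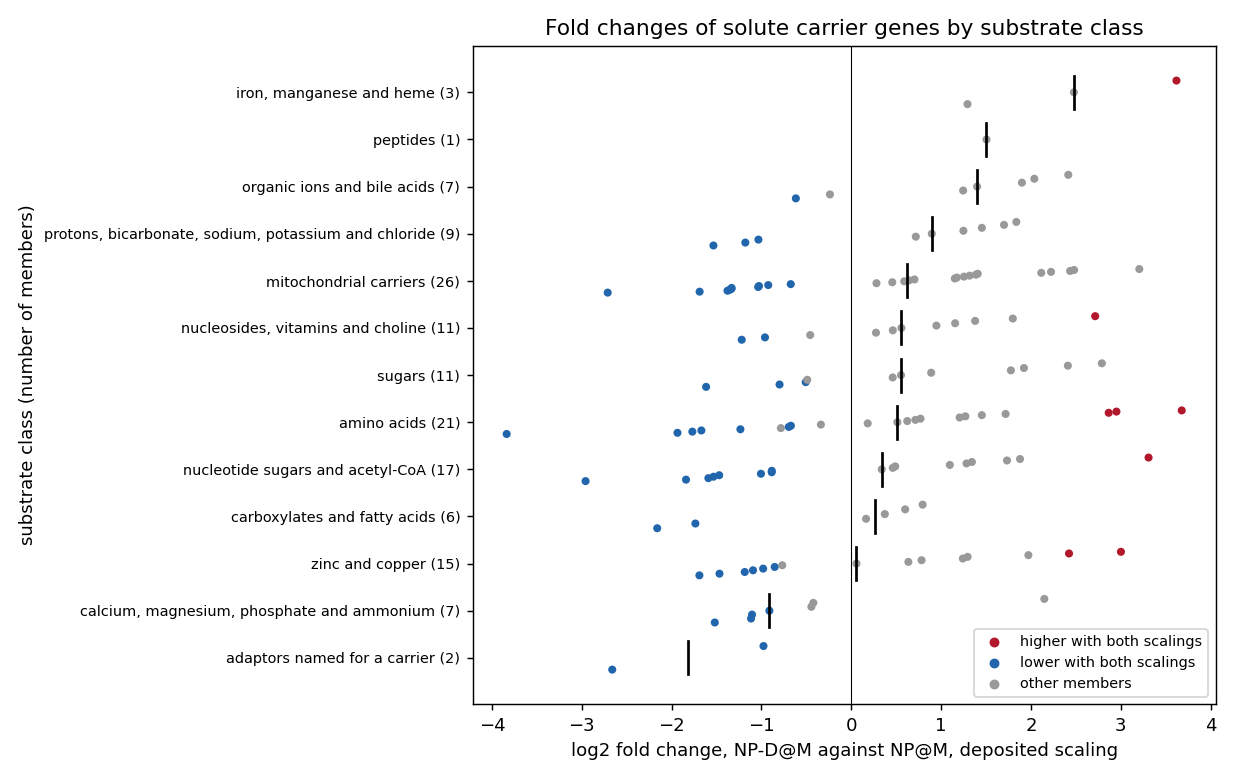
Log2 fold change as deposited in NP-D@M against NP@M of the 136 members by substrate class, with the number of members in brackets; each point is a member, coloured red where it rose, blue where it fell and grey otherwise, and black bars are class medians. Classes are ordered by median, between 2.48 for 3 iron, manganese and heme transporters and -1.82 for 2 adaptors, and the larger classes hold members on both sides of 0.

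The make-up of the family within a library does not depend on the scaling between libraries. Members took 0.718% ± 0.0458 of the recovered reads with NP-D@MP and 0.759% ± 0.0100 with NP-D@M, against 1.41% ± 0.0877 with NP@M and 1.31% ± 0.0775 with PBS (SD, n = 3 each), and the libraries with and without D did not overlap. The 10 most abundant genes of a library took 34.5% of the reads with NP-D@MP and 34.4% with NP-D@M, against 11.5% with NP@M and 11.7% with PBS. Outside the 16 genes that were among the top 10 of any library, the share of the members was 1.15% ± 0.0596 with NP-D@MP and 1.22% ± 0.00820 with NP-D@M, against 1.66% ± 0.0713 with NP@M and 1.54% ± 0.0973 with PBS. The 10 most abundant members of a library held 63.9% of the summed FPKM of the members with NP-D@MP and 62.5% with NP-D@M, against 43.2% with NP@M and 41.2% with PBS. Slc48a1 alone held 17.1% ± 0.541 with NP-D@MP and 16.8% ± 0.749 with NP-D@M, against 4.36% ± 1.61 with NP@M and 4.54% ± 1.76 with PBS. Iron, manganese and heme transporters together held 21% with NP-D@MP and 21.6% with NP-D@M, against 7.15% with NP@M and 7.22% with PBS. Mitochondrial carriers held 32.5% with NP-D@MP and 29.7% with NP-D@M, against 20.7% with NP@M and 21.4% with PBS. Slc25a5 alone gave 14.9% ± 0.755 with NP-D@MP and 13.5% ± 0.232 with NP-D@M, against 7.40% ± 1.11 with NP@M and 7.11% ± 0.920 with PBS. Amino acid transporters had a smaller share with D, 19.5% with NP-D@MP and 20.4% with NP-D@M, against 29.3% with NP@M and 28% with PBS. For sugar transporters the shares were 4.24% with NP-D@MP and 4.07% with NP-D@M, against 7.21% with NP@M and 7.15% with PBS. Slc2a1 gave 0.360% ± 0.0641 with NP-D@MP and 0.385% ± 0.0105 with NP-D@M, against 3.78% ± 0.301 with NP@M and 3.59% ± 0.0954 with PBS. Carboxylate and fatty acid transporters held 0.897% with NP-D@MP and 0.895% with NP-D@M, against 4.23% with NP@M and 4.47% with PBS. These shares are descriptions and carry no test.

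**Figure D5:**
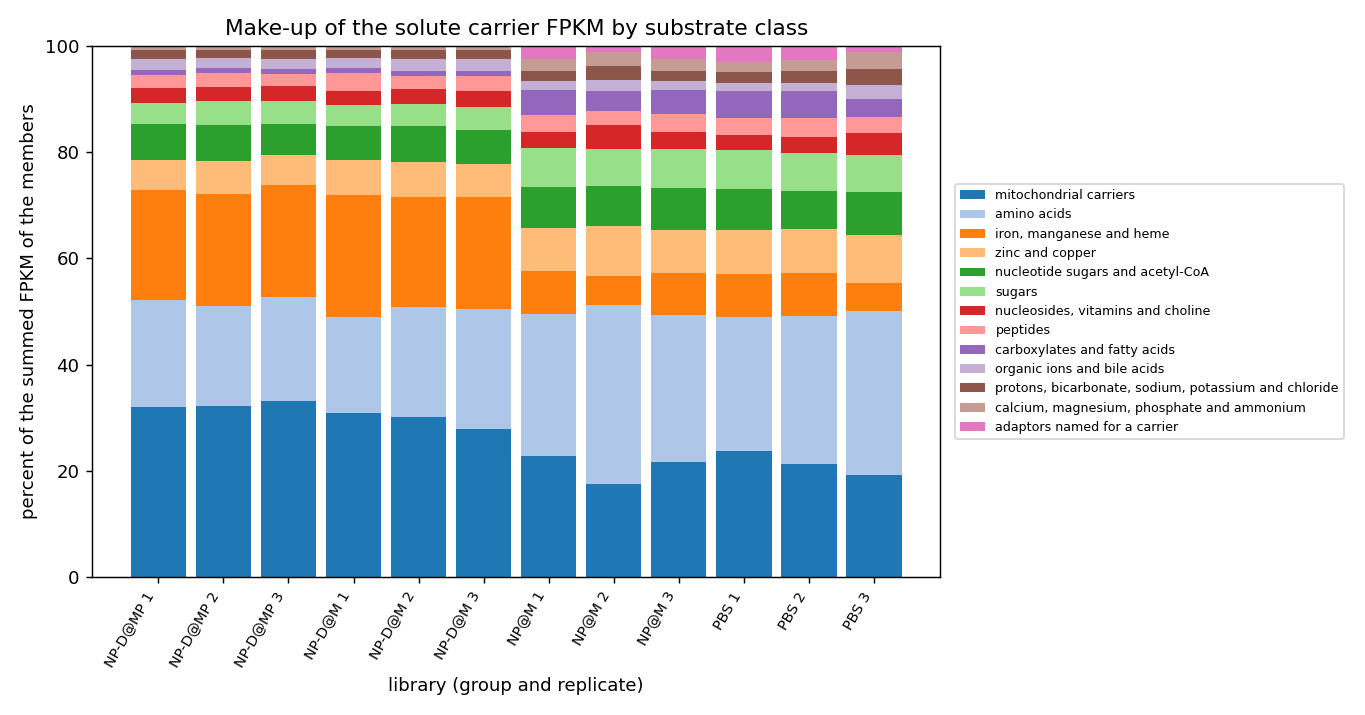
Percent of the summed FPKM of the 136 members held by each substrate class in each of the 12 libraries, stacked to 100%, with the 3 libraries of NP-D@MP and of NP-D@M to the left of those of NP@M and PBS. The bands of iron, manganese and heme transporters (21% with NP-D@MP and 21.6% with NP-D@M, against 7.15% with NP@M and 7.22% with PBS) and of mitochondrial carriers are wider with D.

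The full formulation was compared with the vehicle in libraries that the comparison above does not use. In NP-D@MP against PBS, 10 members rose and 49 fell under both scalings, where 9.01% of all genes tested rose and 45.8% fell. As deposited 71 were called higher and 49 lower (background 45.7% and 45.8%), and with read totals 10 higher and 90 lower (background 9.01% and 62.4%). Of the 8 risers and 48 fallers of NP-D@M against NP@M, 7 and 46 were called again under both scalings, which is 7 of the 10 risers and 46 of the 49 fallers here. The shares called again were 87.5% of the risers and 95.8% of the fallers, where over all genes tested they were 77.5% and 95.9%. The exceptions were Slc38a6, Slc2a3 and the vesicular transporter Slc32a1. The 3 risers found here alone were Slc25a5, Slc25a39 and the ATP-magnesium carrier Slc25a23, and the fallers found here alone were Slc7a11, the sodium-calcium exchanger Slc8a1 and the zinc transporter Slc30a7, named because they are few. The changes in this comparison were close to those above for the steepest members. The naming rule required a call in the same direction here, so agreement in direction among members named by it was set beforehand. Slc36a2 differed by 3.62 (SE 0.23, adjusted p = 1.80e-07; 1.49 with read totals), Slc48a1 by 3.73 (adjusted p = 6.78e-06; 1.52 with read totals and 3.26 as deposited without the 2 libraries apart) and Slc35b1 by 3.44 (adjusted p = 7.62e-08; 1.29 with read totals). For Slc38a2 the value was -3.76 (SE 0.32, adjusted p = 1.31e-06) as deposited and -5.10 with read totals. Deposited and read-total values were -2.57 and -3.93 for Slc25a44, -2.47 and -4.04 for Slc35c1, and -1.51 and -3.64 for Slc2a1. Without PBS replicate 3 and NP@M replicate 2, 12 rose and 52 fell, with Slc25a23 and the amino acid transporter Slc36a1 no longer among them. Whether NP-D@MP against PBS and NP-D@M against NP@M differ for a member was not tested.

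Addition of P to the particle with D left no solute carrier past the threshold. In NP-D@MP against NP-D@M, 0 of 136 members were called by limma, against a background of 0% in either direction, 4 had an unadjusted p under 0.05 (428 of all genes), and limma's voom on the recovered reads called 0 members and 1 gene in all. The smallest adjusted p of a member was 0.82, and fold changes lay between -0.66 and 0.58 on the log2 scale. The copper importer Slc31a1 had 45.8, 55.9 and 43.1 FPKM with NP-D@MP, against 73.7, 73.4 and 69.9 FPKM with NP-D@M. These groups did not overlap, and the log2 fold change was -0.58 (SE 0.22, unadjusted p = 0.0205, adjusted p = 0.820). Slc11a2 had 9.88, 11.3 and 9.28 FPKM with NP-D@MP, against 15.5, 14.1 and 13.1 FPKM with NP-D@M (-0.45, adjusted p = 0.820). In the other direction, Slc27a4 had 3.55, 3.31 and 4.49 FPKM with NP-D@MP, against 2.49, 2.11 and 2.45 FPKM with NP-D@M (0.51, adjusted p = 0.921). The zinc transporter Slc39a13 had 3.03, 4.31 and 3.63 FPKM with NP-D@MP, against 1.497, 2.72 and 2.20 FPKM with NP-D@M (0.58, adjusted p = 0.941). None of these 4 passed the adjustment over all genes.

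The particle without D gave no call either. In NP@M against PBS, 0 members were called by limma, where the background was 0.0116% higher (1 gene) and 0% lower, 0 members and 27 genes had an unadjusted p under 0.05, and voom called 0. Fold changes of members lay between -0.50 and 0.43 on the log2 scale. The smallest p belonged to the thiamine transporter Slc19a2, with 2.01, 2.43 and 2.15 FPKM with NP@M, against 1.93, 1.89 and 0.840 FPKM with PBS (0.35, unadjusted p = 0.109). PBS replicate 3 was its lowest library, and the value was 0.13 without it and 0.08 without the 2 libraries apart. Next were 3 amino acid transporters of the Slc7 family: Slc7a1 (0.31, unadjusted p = 0.116), Slc7a6 (0.27, 0.166) and Slc7a5 (0.43, 0.185). All 4 had an adjusted p of 1, and without the 2 libraries apart Slc7a1 came to 0.05 and Slc7a5 to 0.06. Slc7a6 came to 0.13 without NP@M replicate 2. With 3 libraries a group these misses do not show that the groups were alike.

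Gene length was compared without a test. The median gene length in the table was 3403 bp for the 8 risers, 5364.5 bp for the 48 fallers and 4099.5 bp for the other 80 members. Across the 136 members, longer genes had lower log2 fold changes in NP-D@M against NP@M (Spearman's rho -0.31), and across all 8615 genes tested rho was -0.42. In NP-D@MP against PBS the values were -0.33 and -0.42. These are correlations across genes of the same libraries, and genes are not independent replicates.

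Other transport and nutrient genes were counted under the same rule, by which 9.12% of all genes tested rose and 46% fell in NP-D@M against NP@M. ATP-driven ABC transporters, 23 of 29 tested, held 1 riser and 8 fallers in NP-D@M against NP@M, among the fallers the cholesterol exporters Abcg1 (3.09 ± 0.606 FPKM with NP-D@M and 37.5 ± 3.61 FPKM with NP@M) and Abca1 (5.73 ± 1.38 FPKM with NP-D@M and 30.2 ± 22.3 FPKM with NP@M). Of 22 tested subunits of ion-pumping ATPases, 6 rose and 3 fell, and the risers included the proton pump subunits Atp6v0e (694 ± 131 FPKM with NP-D@M and 38.1 ± 1.56 FPKM with NP@M) and Atp6v0b (443 ± 46.7 FPKM with NP-D@M and 41.9 ± 13.2 FPKM with NP@M). The median log2 fold change as deposited was 0.46 for the ABC transporters and 1.72 for the ATPase subunits, against 0.16 for all genes, and with read totals -1.17 for the ABC transporters and -0.31 for the ATPase subunits, against -1.47 for all genes. Of 17 tested genes of the amino acid response, a stress program whose known targets include Slc38a2, Slc7a5, Slc7a11 and Slc3a2, 0 rose and 9 fell, with a median of -1.22 as deposited and -2.69 with read totals. As deposited, 5 of the 17 were called higher and 9 lower. Among these carriers Slc38a2 and Slc7a5 fell in NP-D@M against NP@M. There Slc7a11 was called lower with read totals alone, and Slc3a2 was called higher as deposited alone. In NP-D@MP against PBS Slc7a11 fell. A link between the carriers and the response genes was not tested. Atf4, the transcription factor of the response, averaged 6.70 ± 1.89 FPKM with NP-D@M and 84.7 ± 42.1 FPKM with NP@M, and its target Trib3 0.494 ± 0.262 FPKM with NP-D@M and 40.6 ± 15.8 FPKM with NP@M. Of 10 tested iron handling genes, 3 rose and 2 fell, with a median of 0.92 as deposited and -0.69 with read totals. The ferritin light chain Ftl1 averaged 25689 ± 3455 FPKM with NP-D@M and 1563 ± 775 FPKM with NP@M, and the iron sensor Fbxl5 2.32 ± 0.258 FPKM with NP-D@M and 13.3 ± 4.82 FPKM with NP@M (SD, n = 3 each). The counts of risers and fallers in NP-D@MP against PBS, where 9.01% of all genes tested rose and 45.8% fell, were 0 and 8 for ABC transporters, 6 and 2 for ATPase subunits, 0 and 9 for amino acid response genes and 3 and 2 for iron handling genes.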

How the data were processed

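The FPKM values are those the authors deposited for 12 libraries in 1 table of 11669 genes. The unit is not named in the table and was read from the values. Multiplied by gene length, the values of a library share 1 common step, and dividing by it gave reads that were whole within 0.05 for 100% of values. The factor the authors applied between libraries and how they picked genes for the table are not given in the sources used here. Bowtie 0.12.2 and the build mm8 are named in the submitters' processing notes without a role. Positions of the table equalled GENCODE M21 on GRCm38 for 131 members, and positions are given on that build.

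Tests covered the 8615 genes with 1 FPKM or more in 3 or more libraries. Log2(FPKM + 1) was fitted with 4 group means over 12 libraries by limma 3.58.1 in R 4.3.3 with the trend and robust options, 2-sided, and adjusted by the Benjamini-Hochberg method over all genes tested, with calls at an adjusted p under 0.05. Fold changes on this scale understate the change of low genes. The same fit was made after scaling each library to its recovered reads. The fit was also run on simulated reads that carried no factor between libraries, so that run does not bear on the choice of scaling. Alternatives were quantile normalization, equal medians, a pseudocount of 0.1, no filter, a filter of 5, no trend, voom on recovered reads and leaving out libraries. Tables were handled with pandas 2.3.3 and plots drawn with matplotlib 3.10.9, under Python 3.11.15 beside scipy 1.17.1 and numpy 2.4.6.

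Members, substrate classes and gene lists were chosen with earlier results of these data known, and the class of adaptors was added after the values were seen. Named genes are up to 3 per class and direction with the largest fold change among members that passed under both scalings in both comparisons of D with no D, whose NP-D@M and NP@M groups do not overlap and whose higher group averages at least 5 FPKM. They also include 30 members fixed by name and, where fewer than 4 were called, the 4 with the smallest p. Slc15a4, Slc25a28 and Slc6a6 are not analysed here. A member chosen by the naming rule is not reported here. The labels do not state that a group's 3 libraries are separate cultures, so p-values measure only the spread between libraries. The floor of 3 reads covers counting error only, since reads are not independent molecules. Strand-specific counting is not stated.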

Additional observations from a re-analysis of the deposited data

How the results depend on the processing

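Counts of called members in NP-D@M against NP@M and NP-D@MP against PBS depended most on the scaling. As deposited, 71 and 71 were called higher and 48 and 49 lower in these comparisons. With library read totals the counts were 8 and 10 higher and 87 and 90 lower, with voom on the recovered reads 8 and 11 higher and 85 and 88 lower. With read totals and without PBS replicate 3 and NP@M replicate 2, an alternative chosen after seeing the data, they were 12 and 12 higher and 100 and 102 lower. A filter of 5 in 3 libraries left 18 and 19 called lower, by testing fewer members. The remaining alternatives kept these counts within 1.5 times: equal medians gave 78 and 77 higher and 41 and 36 lower, quantile normalization 55 and 57 higher and 33 and 33 lower. Leaving out 1 library at a time gave 64 to 73 and 66 to 72 higher, and 46 to 50 and 46 to 53 lower. In NP-D@MP against NP-D@M and in NP@M against PBS 0 members were called under every alternative run. Of the 8 and 48 members called under both scalings in NP-D@M against NP@M, quantile normalization kept 8 and 28, equal medians 8 and 41, and voom 8 and 48. For the other alternatives the cause of a lost call was not tested.

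Changes of direction were as follows, as log2 fold changes first in NP-D@M against NP@M and then in NP-D@MP against PBS. Read totals gave -0.65 and -0.97 for Slc11a2, -0.63 and -0.85 for Slc15a3, -1.37 and -1.18 for Slc16a1, -1.34 and -1.03 for Slc1a5, -0.88 and -0.62 for Slc3a2, -0.37 and -0.021 for Slc46a1, -0.60 and -0.34 for Slc6a8, and -0.93 and -1.35 for Slc7a2. Voom gave -0.72 and -1.11 for Slc11a2, -0.64 and -0.87 for Slc15a3, -1.68 and -1.48 for Slc16a1, -1.41 and -1.08 for Slc1a5, -0.88 and -0.63 for Slc3a2, -0.63 and -0.36 for Slc6a8, -0.94 and -1.37 for Slc7a2, and, in NP-D@M against NP@M alone, -0.51 for Slc46a1. Read totals without the 2 libraries gave -0.54 and -0.92 for Slc11a2, -0.77 and -1.05 for Slc15a3, -1.08 and -0.99 for Slc16a1, -1.67 and -1.501 for Slc1a5, -0.17 and -0.043 for Slc25a3, -1.28 and -1.26 for Slc3a2, -0.51 and -0.38 for Slc46a1, -0.67 and -0.44 for Slc6a8, -0.62 and -1.17 for Slc7a2, and, in NP-D@MP against PBS alone, -0.20 for Slc25a4. Quantile normalization gave -0.52 and -0.68 for Slc15a3, 0.22 and 0.37 for Slc2a3, -1.05 and -0.72 for Slc3a2, -0.93 and -1.19 for Slc7a2, and, in NP-D@M against NP@M alone, -0.33 for Slc1a5 and -0.065 for Slc25a5. Equal medians gave 0.033 for Slc20a1 and 0.0041 for Slc2a6 in NP-D@M against NP@M. The cause of these reversals beyond the change of scale was not tested. A pseudocount of 0.1, no filter and limma without trend kept the direction and call of all 94 named values.

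No paired analysis was possible because the labels give the libraries of different groups no shared replicate numbers, and the numbers used here follow the order of the records. Depth limits the members near 0 with D, such as Slc38a2 and Slc30a1, whose few reads give imprecise levels there.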

Other observations

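Of the 40 solute carrier genes below the threshold of membership, the nearest to it and ferroportin are given in the text above, and no fold changes are given for them. With library read totals in place of the deposited scaling, 134 of the 136 members would pass the same threshold and 10 further genes would join them. The fall of Slc38a2 and Slc7a1 stood beside the rise of Slc7a8 and Slc36a2 in the same libraries, so that the amino acid transporters with D were a different mixture. The direction of Slc7a2 depended on the scaling, and its mean share of the summed FPKM of the members was not higher with D. That share was 2.13% ± 0.107 with NP-D@MP and 3.15% ± 0.395 with NP-D@M, against 4.41% ± 2.10 with NP@M and 4.19% ± 1.78 with PBS. Slc7a8 held 4.06% ± 0.0405 of the summed FPKM of the members with NP-D@MP and 4.05% ± 1.04 with NP-D@M, against 1.60% ± 0.0619 with NP@M and 1.62% ± 0.328 with PBS. Slc38a2 held 0.00753% ± 0.00250 with NP-D@MP and 0.0107% ± 0.00400 with NP-D@M, against 1.59% ± 0.799 with NP@M and 1.503% ± 0.9002 with PBS.

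Markers of megakaryocytes and platelets, 4 of 5 of them in the table, summed to 25737 to 28667 FPKM with NP-D@MP and 20396 to 26100 FPKM with NP-D@M, against 484 to 1198 FPKM with NP@M and 520 to 1211 FPKM with PBS. With read totals the sums were 12044 to 14457 with NP-D@MP and 10754 to 12594 with NP-D@M, against 1120 to 2808 with NP@M and 1138 to 2831 with PBS. These sums were almost wholly Pf4 and Ppbp, which as deposited averaged 19753 and 2660 FPKM with NP-D@M, against 718 and 219 FPKM with NP@M. Itga2b and Gp9 averaged only 6.46 and 0.882 FPKM with NP-D@M, against 2.69 and 0.0616 FPKM with NP@M. Of the 4, 2 rose in NP-D@M against NP@M, and of 10 tested neutrophil markers 0 rose and 4 fell, where 9.12% of all genes tested rose and 46% fell. The part of these cells in the results on solute carriers was not tested.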
